A study of Homo sapiens with 28 samples.

Results

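The 9 genes described here make, remove or read methyl groups on lysine 36 of histone H3. NSD1, NSD2, NSD3, SETD2 and ASH1L are writers, KDM2A, KDM2B and KDM4A are erasers, and MORF4L1 is a reader. They were chosen by name, as 9 of the 19970 protein-coding genes of GENCODE release 44 on chromosomes 1 to 22 and X (hg38). The unit of measurement was the gene body with 5 kb on either side, called the window. Other coding genes reach into every window except those of SETD2 and KDM2A, so a peak counted for a member may also lie in another gene. For ASH1L only the part from base 155396001 to base 155568000 of chromosome 1 was used, which leaves out the exons carried by the transfected construct. The 9 windows together held 1225225 bases.

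Lysine 36 of histone H3 can carry up to a trimethyl mark. NSD1, NSD2, NSD3 and ASH1L place mono- and dimethylation, and SETD2 places trimethylation on genes that RNA polymerase II is transcribing. KDM2A and KDM2B are JmjC-domain demethylases of the mono- and dimethyl marks and bind unmethylated CpG-rich DNA through a CXXC zinc finger. KDM4A removes the trimethyl mark and also acts on lysine 9 of the same histone. MORF4L1, also known as MRG15, binds methylated lysine 36 through its chromodomain and is a partner of ASH1L. The windows tell where the mark and the ASH1L fragment lie on the genes of this machinery, and not how much of each protein or transcript was made.

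The data were 10 lists of broad ChIP-seq peaks from U2OS cells, a human osteosarcoma line. H3K36me2 was immunoprecipitated from wild-type cells, as 2 unirradiated replicates (without UV) and 2 replicates collected 3 h past a dose of 20 J m-2 UV-C, and was compared with pooled input. The C-terminal part of ASH1L (CTD), tagged with Flag, was immunoprecipitated from ASH1L-/- cells, with 3 replicates without UV and 3 at 3 h, and was compared with ChIP from cells given the empty vector. The knockout cells came from clonal colonies, and the CTD was expressed from a transfected plasmid under the CMV promoter, so its amount is not that of native ASH1L. All ASH1L-/- samples, control ChIP included, lack intact ASH1L, whereas the H3K36me2 samples carry it. Each list held 500000 peaks, so that no list could hold more peaks than another. A list covered between 401.1 and 458.3 Mbp in H3K36me2 and between 268.7 and 333.8 Mbp in the CTD. The weakest peaks kept had a −log10 p between 1.22 and 1.42, and read depth is not part of the lists. The covered share used below is the percentage of the bases of a window that lay under a peak.

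Of the 9 members, 4 had an H3K36me2 site at which the strongest peaks of all 4 lists shared bases at the site chosen for that member, the one with peaks in most lists and the highest fold enrichment in its weakest list. For KDM2A and KDM2B, the 2 erasers among them, the 300 bases around the centre of the shared part are shown because they are the best supported stretches of the mark on these genes. They are from the plus strand of hg38, and capitals mark each CG dinucleotide, the letters that the CXXC finger of KDM2A and KDM2B reads.
KDM2A, upstream flank, chr11:67118261-67118560: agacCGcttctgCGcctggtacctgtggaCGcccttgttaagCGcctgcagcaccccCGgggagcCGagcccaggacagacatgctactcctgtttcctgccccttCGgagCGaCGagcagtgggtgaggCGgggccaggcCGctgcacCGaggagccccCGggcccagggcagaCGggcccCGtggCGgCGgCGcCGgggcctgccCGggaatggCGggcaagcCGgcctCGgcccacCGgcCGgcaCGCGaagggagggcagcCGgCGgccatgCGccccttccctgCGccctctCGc
KDM2B, intron 2, chr12:121578269-121578568: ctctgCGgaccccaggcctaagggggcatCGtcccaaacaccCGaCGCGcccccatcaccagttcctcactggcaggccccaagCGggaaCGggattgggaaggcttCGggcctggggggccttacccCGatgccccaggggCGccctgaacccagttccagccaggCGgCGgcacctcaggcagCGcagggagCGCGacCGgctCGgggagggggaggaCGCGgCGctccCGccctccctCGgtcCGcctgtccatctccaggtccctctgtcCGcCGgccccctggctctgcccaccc
The KDM2A stretch held 32 CG dinucleotides and the KDM2B stretch 25, whereas the windows of these genes held on average 4.69 and 6.67 per 300 bases. GC content was 75.3% in the KDM2A stretch and 73.3% in the KDM2B stretch. Both were thus CpG-rich DNA, in sites centred at −1025 bases from the gene start in KDM2A and at 3193 bases in KDM2B. This was not shared by the 4 members. The 300 bases chosen in the same way had 47.7% GC in NSD1 and 50.3% in SETD2. Whether the CXXC finger bears on any of these sites was not tested.

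The share of the window under H3K36me2 peaks differed widely among the members. KDM2B and MORF4L1 were the most covered genes, at 21.5% ± 1.18 and 18.5% ± 1.89 of the window without UV (SD, n = 2 lists), and every writer was under 8% in every list. The median coding gene had 8.29% and 9.39% in the lists without UV and 4.93% and 4.89% at 3 h. ASH1L, at 5.09% in replicate 1 at 3 h, was above the median gene of that list. Without UV, ASH1L (6.004% ± 2.52), SETD2 (5.17% ± 1.42), KDM2A (4.40% ± 0.126) and NSD1 (3.95% ± 0.660) followed (SD, n = 2), and each of them overlapped its neighbour in this order. NSD3 (1.19% ± 0.219), KDM4A (0.934% ± 1.32) and NSD2 (0.384% ± 0.179) were lowest, and KDM4A overlapped both others. Among the 7982 coding genes with a window of 50 kb or more, KDM2B stood at percentile 78.4 and NSD2 at percentile 4.77 without UV. GC content did not follow this order. KDM2B had the most GC-rich window of the 9, at 50.5%, and NSD2, with the next highest value of 48.1%, was the least covered.

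**Figure D1:**
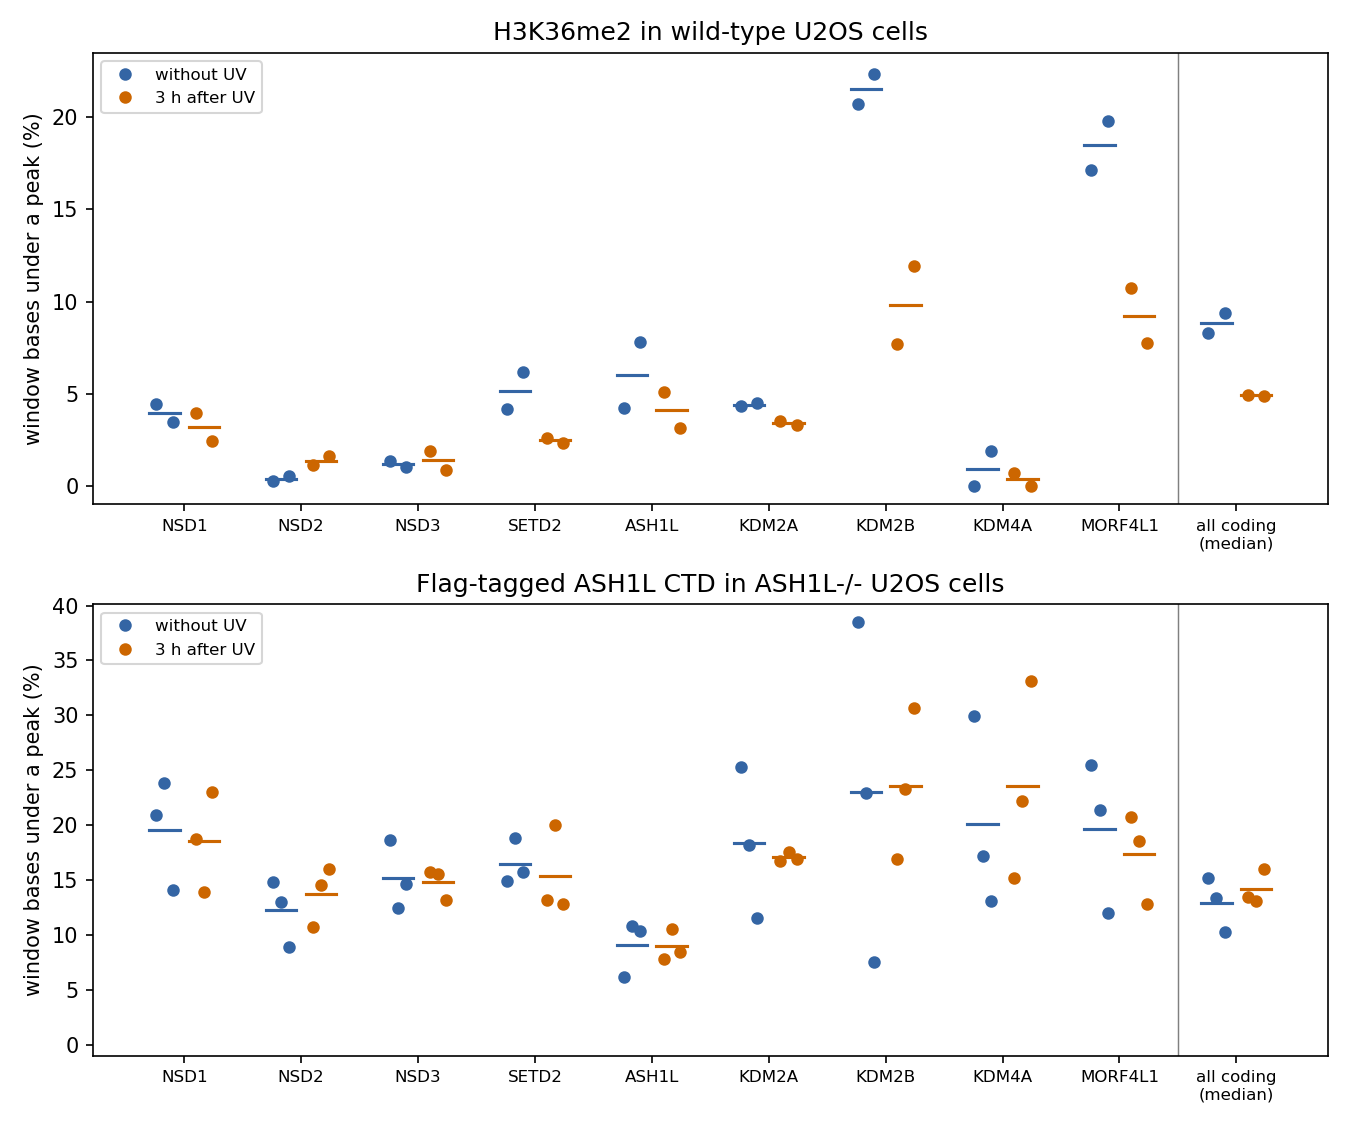
Share of each window under a peak (%, vertical axis), with a point for each list and a bar at the mean, for the 9 members and for the median of all 19970 coding genes. In H3K36me2 (top; 2 lists per condition) KDM2B and MORF4L1 stand above the median gene without UV and are lower at 3 h, and in the CTD (bottom; 3 lists per condition) the conditions overlap at every member.

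NSD1 lies on chromosome 5 (177131830 to 177300213, plus strand). Its H3K36me2-covered share was 4.42% and 3.48% in the lists without UV and 3.95% and 2.41% at 3 h, so the conditions overlapped. Each list had between 8 and 11 peak centres there. A GC-rich site at the start of the gene (70.1% GC, 177131518 to 177133235) was under a peak in all 4 lists, and the promoter, 1 kb either side of the start, was covered to 47.0% without UV and 54.5% at 3 h. The promoter was thus the most covered part of NSD1 at 3 h. A site in intron 5 was the leading one, with fold enrichments of 2.18 and 1.84 without UV and 1.78 and 1.85 at 3 h.

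NSD2 lies on chromosome 4 (1871393 to 1982207, plus strand) and is the writer with the lowest H3K36me2-covered share without UV. Its covered share was 0.257% and 0.511% without UV and 1.11% and 1.63% at 3 h. NSD2 was the sole member in which every list at 3 h was above every list without UV. The numbers behind it are small, with 1 and 2 peak centres without UV and 3 and 5 at 3 h. In intron 1 the strongest of these had a fold enrichment of 2.40 in replicate 1 at 3 h, and the peaks over the same site without UV had 1.703 and 1.82. Replicate 2 at 3 h had no peak at this site.

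NSD3 lies on the minus strand (38269704 to 38382272 of its chromosome). The mark covered 1.34% and 1.03% of its window without UV and 1.91% and 0.857% at 3 h, with between 3 and 6 peak centres. The conditions overlapped. All of its peaks were centred in intron 1, and no peak lay on the promoter in any list.

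SETD2, the trimethylase, lies on chromosome 3 (47016428 to 47164113, minus strand). SETD2 was covered to 4.17% and 6.17% without UV and 2.59% and 2.33% at 3 h, with no overlap between conditions. The upstream flank carried a site in all 4 lists, with fold enrichments of 1.92 and 1.76 without UV and 1.77 and 1.85 at 3 h. A further site in all 4 lists lay within intron 1. The promoter of SETD2 was free of peaks in every list.

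ASH1L lies on chromosome 1 (155335268 to 155563162, minus strand), and the part used held exons 1 to 6. Its covered share was 4.22% and 7.79% without UV and 5.09% and 3.13% at 3 h. Conditions overlapped, and replicate 2 without UV was the highest. That list had 29 peak centres, the others 14, 16 and 11. The gene had 48 sites, of which 34 were present in a single list and none in all 4.

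KDM2A lies on chromosome 11 (67119263 to 67258082, plus strand). Its covered share was 4.31% and 4.49% without UV and 3.52% and 3.30% at 3 h, with the narrowest spread of the 9 members within a condition. The site upstream of its start, whose sequence is given, had fold enrichments of 2.34 and 2.74 without UV and 1.97 and 2.288 at 3 h. Its 2.74 is the highest H3K36me2 fold enrichment found in any window of the 9 genes. The other site in all 4 lists lay in intron 2, at 67155117 to 67156847.

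KDM2B lies on chromosome 12 (121429096 to 121581023, minus strand). Its covered share was 20.7% and 22.4% without UV and 7.68% and 11.9% at 3 h. Peak centres numbered 33 and 40 without UV and 20 and 22 at 3 h, so every list at 3 h was below every list without UV on both scales. The leading site, in intron 2, shared 1766 bases among all 4 lists. Its fold enrichments were 2.47 and 2.57 without UV and 2.16 and 1.83 at 3 h. It also had the lowest p-values of the members, with a −log10 p of 4.61 in replicate 2 without UV.

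KDM4A lies on chromosome 1 (43650149 to 43705518, plus strand). Its gene body carried no H3K36me2 peak in any of the 4 lists. The window value of 1.87% in replicate 2 without UV and 0.714% in replicate 1 at 3 h came from 3 peaks in the flanks, and the other lists had 0 covered bases. None of these peaks reached a −log10 p of 2.

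MORF4L1 lies on chromosome 15 (78810487 to 78898139, plus strand). Peaks covered 17.1% and 19.8% without UV and 10.7% and 7.77% at 3 h, with no overlap. The canonical transcript of the gene spans 25.3 kb at the 3′ end of a much longer annotated gene. Within that transcript 2.69% and 2.43% of bases were covered without UV and 1.34% and 1.04% at 3 h. In the 72.4 kb of the window outside it the values were 22.2% and 25.9% without UV and 13.99% and 10.1% at 3 h. H3K36me2 over MORF4L1 therefore lay mostly on the long upstream stretch, which is inside the gene through longer transcripts alone, and both parts were lower in each list at 3 h.

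**Figure D2:**
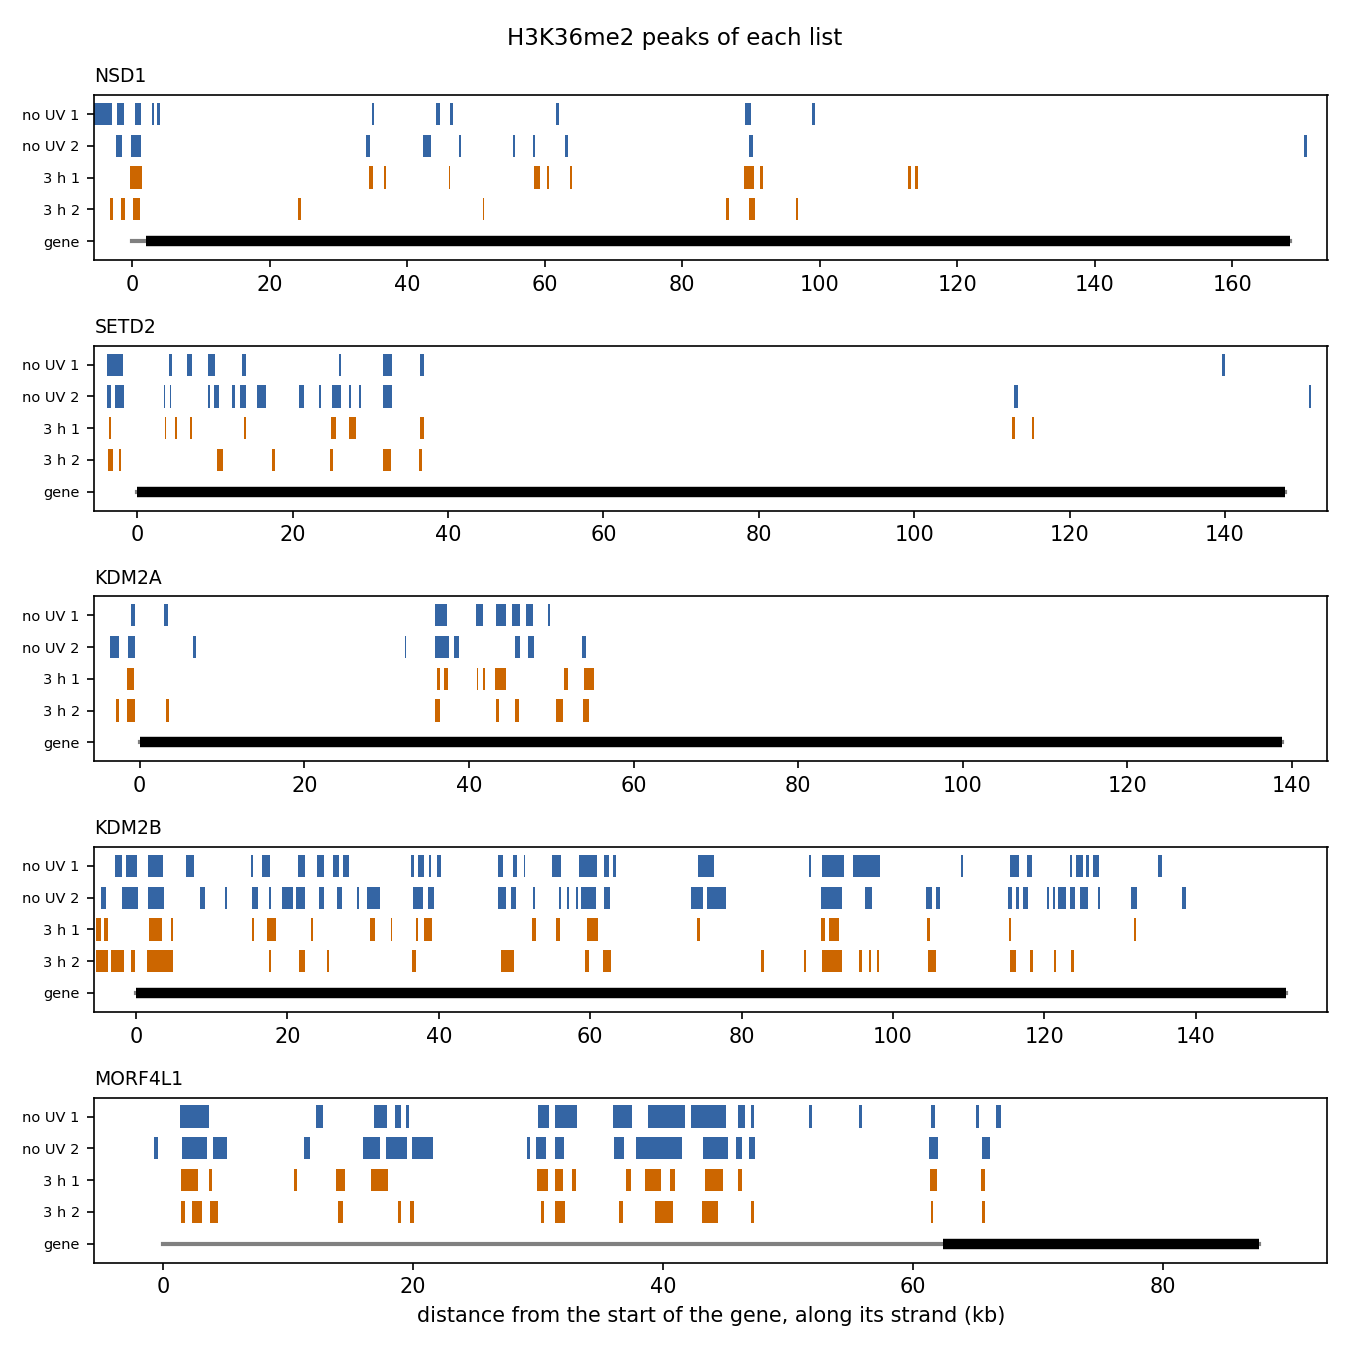
H3K36me2 peaks of each of the 4 lists against distance from the gene start (kb, horizontal axis) for the 5 members with a site in every list, with the gene as a grey line and its canonical transcript as a black bar. KDM2A peaks and most SETD2 peaks sit in the front of the gene, KDM2B peaks run along nearly all of it, and most MORF4L1 peaks sit before the canonical transcript.

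The mark lay towards the front of the members measured to their end, apart from KDM4A, whose gene body had no H3K36me2 peak. In MORF4L1 the gene start and the promoter are those of the longer annotated gene, far before its canonical transcript. In the last 5 kb before the gene end, none of the 8 members with a measurable end had a base under an H3K36me2 peak in any of the 4 lists. Of the 14470 coding genes long enough for this division, 48.6% were likewise bare there, and on average 10.1% of these bases were covered without UV. In the 5 kb past the promoter 15.9% ± 2.72 was covered in the members without UV and 14.8% ± 0.667 in all coding genes (SD, n = 2 lists). At the promoter itself, 5 of the 9 members (NSD2, NSD3, SETD2, ASH1L and KDM4A) were bare in every list, beside 49% of coding genes. Between these ends, in the rest of the gene body, the members were covered to 6.65% ± 0.759 without UV and all coding genes to 14.3% ± 0.221 (SD, n = 2).

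Cutting each gene into 10 equal bins from start to end gave the same picture. Without UV the bins 1 to 5 were covered to 10.1% on average over the 8 members and the bins 6 to 10 to 3.34%, and at 3 h to 5.80% and 1.69%. The medians of the 8 members were 6.03% and 0.283% without UV and 3.74% and 0.226% at 3 h. ASH1L, left out of these values, had 6.81% in bins 1 to 5 and 4.69% in bins 6 and 7 without UV. At 3 h its order was the other way, with 3.47% and 6.17%. Coding genes with long windows went from 14.3% to 12.1% without UV and from 11.3% to 9.69% at 3 h. NSD2, NSD3, KDM2A and KDM4A had no covered base in bins 6 to 10 in any list, as did 12.1% of the coding genes with long windows. KDM2B was the exception among the erasers, with 25.1% in bins 1 to 5 and 16.8% in bins 6 to 10 without UV. MORF4L1 reached 64.0% in bin 5, the highest bin of any member, and 28.7% there at 3 h. Its bins 1 to 5, at 32.5% without UV the highest of the 8 members, end before its canonical transcript starts. The means over the 8 members include this stretch. Members were chosen by function and are not replicates, so the difference from other genes was given as a description with no test.

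**Figure D3:**
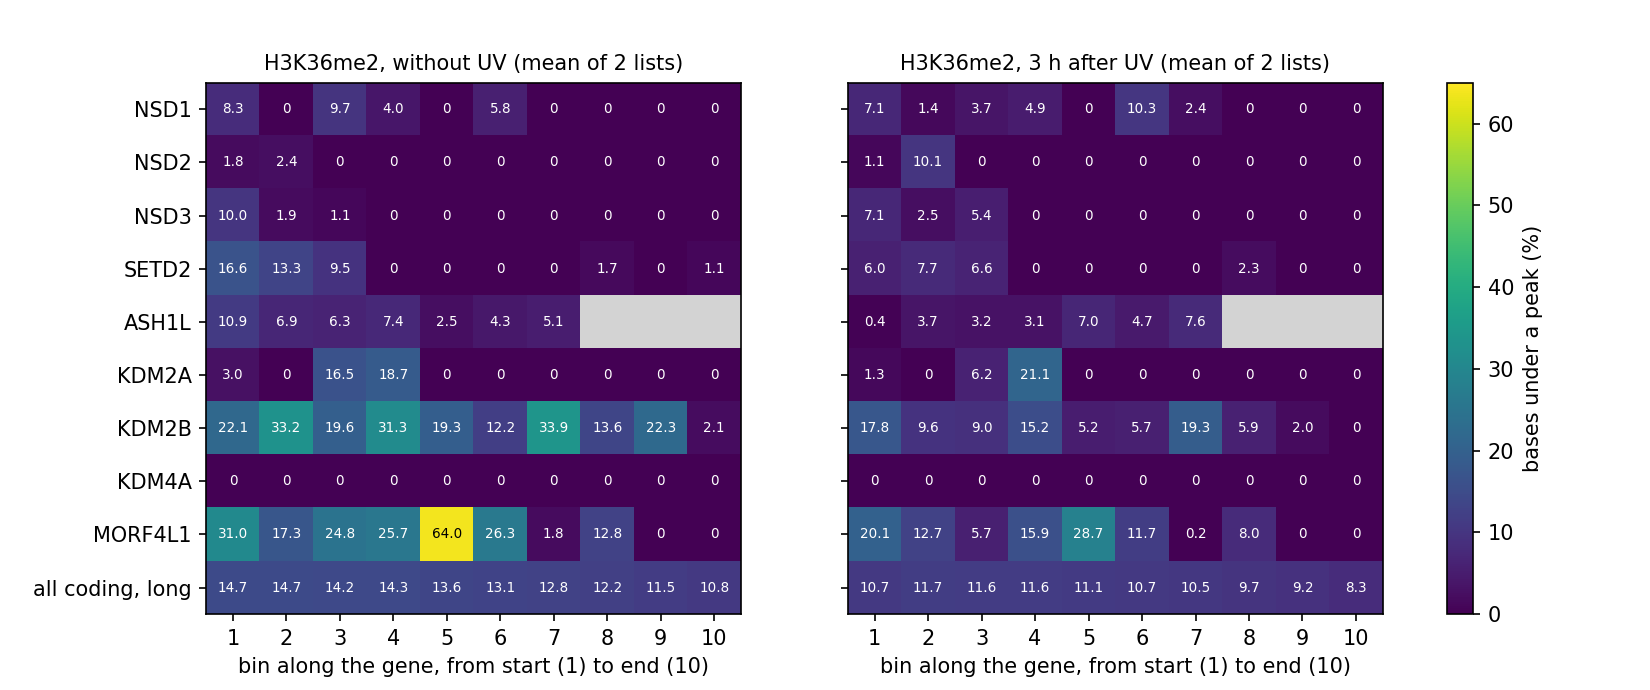
H3K36me2-covered share (%, colour and printed value, mean of 2 lists) in 10 equal bins from gene start to gene end, for each member (rows) and for the mean of the 7982 coding genes with long windows (bottom row), without UV (left) and at 3 h (right). Grey bins of ASH1L were outside the part used, and bins 9 and 10 are at 0 in every other member except KDM2B and bin 10 of SETD2 without UV (1.11%).

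Merging overlapping peaks of the 4 lists gave 203 H3K36me2 sites on the members, and 20 of them had a peak in every list. This is 9.85% of the sites, where sites over all coding windows gave 21.0%. MORF4L1 held 8 of the 20, KDM2B 6, and NSD1, SETD2 and KDM2A 2 each, and NSD2, NSD3, ASH1L and KDM4A held none. A single list supplied 57.1% of the members' sites. The members' peaks were also weaker than the rest. Between 21.8% and 29.2% of them reached a −log10 p of 2, beside 40.8% to 45.0% of all peaks in the lists, and 12 peaks over all members and lists reached a −log10 q of 1.3. With peaks of −log10 p of 2 or more the count of sites in every list was 3.

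H3K36me2 covered less of the members 3 h after UV, as it did of coding genes in general. Over the 9 windows together, 7.14% ± 0.829 of bases lay under a peak without UV and 4.10% ± 0.230 at 3 h (SD, n = 2 lists each). KDM2B was lower by the most, with a difference (3 h minus without UV) of −11.7 percentage points ± 1.98 (SE; limma, unadjusted p = 0.0130, adjusted p = 0.114). MORF4L1 followed with −9.23 ± 1.74 points (limma, unadjusted p = 0.0171, adjusted p = 0.125). SETD2 had −2.71 ± 0.905 points (adjusted p = 0.228), which was −1.71 points without replicate 2 without UV, and KDM2A −0.995 ± 0.281 points (limma, unadjusted p = 0.0454, adjusted p = 0.190). NSD2 had +0.991 ± 0.361 points (adjusted p = 0.252).

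No member passed the fit across all coding genes. The limma test at an adjusted p under 0.05 called 0 of 9 members, and it called 0 of the 19970 coding genes lower (0%) and 0 higher (0%). At an unadjusted p under 0.05, 3 of the 9 members were lower and none higher, where 23.5% of coding genes were lower and 1.73% higher. The 2 lists at 3 h were below both lists without UV in 4 members (SETD2, KDM2A, KDM2B and MORF4L1) and above them in NSD2, where the background was 47.5% and 6.5% of coding genes. A two-sided exact permutation test cannot go below p = 0.333 with 2 lists against 2, the value that these 5 members had. The median difference of the members was −0.995 points and that of all coding genes −1.96 points. As a ratio of means the medians were −0.55 and −0.49 on the log2 scale. Set against the median coding gene, KDM2B was lower by a further −9.78 points and MORF4L1 by −7.27 points, SETD2 by −0.753 points, and the other 6 members were above it by 0.067 to 2.95 points. Differences in points depend on the starting level, which in KDM2B and MORF4L1 was above that of the median gene. As a ratio, KDM2B and MORF4L1 kept 0.455 and 0.5005 of their covered share, and SETD2 kept 0.476. KDM4A kept 0.382, from peaks in its flanks alone. The other members ran from 0.685 in ASH1L to 3.58 in NSD2.

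Scaling decides the direction of several members. With the median coding gene of each list subtracted (8.84% ± 0.778 without UV and 4.91% ± 0.0311 at 3 h, SD, n = 2), NSD1, SETD2, ASH1L, KDM2A and KDM4A were higher at 3 h, by 1.22 to 3.36 points, and KDM2B and MORF4L1 were still lower, with −7.80 and −5.29 points (limma, adjusted p = 0.1002 and 0.1096).

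Among the settings tried, 1 changed the calls of members. When peaks had to overlap a peak of the other replicate of their condition, limma called SETD2, KDM2B and MORF4L1 lower (adjusted p = 0.0342, 0.0289 and 0.0366), and of all coding genes 2812 lower and 413 higher. This filter makes the replicates of a condition share their peaks by construction.

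**Figure D4:**
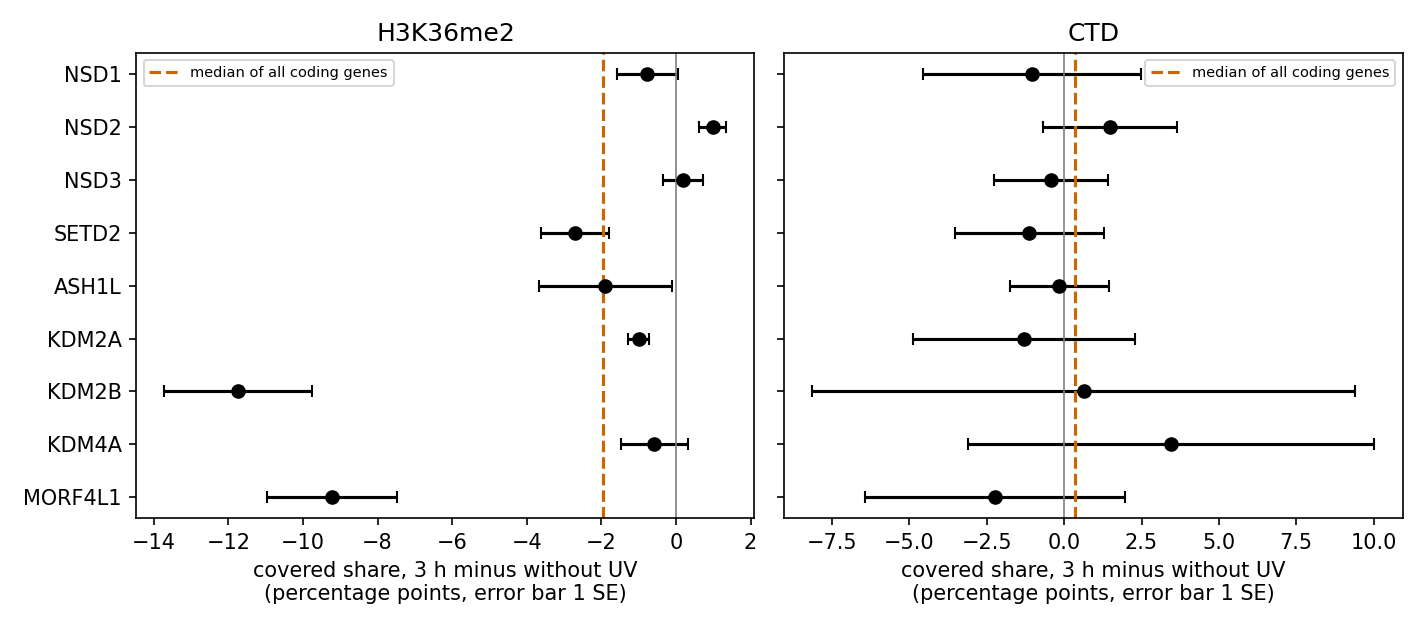
Difference of the covered share between 3 h and no UV (percentage points, horizontal axis) for each member, as the mean of the lists with 1 SE from limma (n = 2 lists per condition for H3K36me2, left, and n = 3 for the CTD, right), and the median of all coding genes (dashed). KDM2B and MORF4L1 lie left of the dashed line in H3K36me2, and in the CTD all 9 error bars include 0 and the median gene.

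Exons of the members carried little of the mark. Of the 395 H3K36me2 peaks in the windows, 296 were centred in introns of the canonical transcripts, 61 in gene body outside these transcripts and 3 in exons. Exons make up 6.14% of the transcript bases measured. Per base, 1.96% ± 0.522 of exon sequence and 5.76% ± 0.715 of intron sequence was covered without UV (SD, n = 2), and at 3 h 0.460% ± 0.292 and 3.44% ± 0.372 (SD, n = 2). In all 4 lists exons were the lower of the pair. No such values over all coding genes are given, so whether this is particular to the members was not tested. The intron that held most peaks differed among members. All 17 NSD3 peaks, 10 of the 11 NSD2 peaks and 32 of the 43 SETD2 peaks were in intron 1, and 27 of the 33 KDM2A peaks were in intron 2. KDM2B, with 115 peaks, had 37 in intron 12 and 24 in intron 4. These counts were not set against intron length. CTD peaks were also most frequent in the same introns, with 45 of 192 in NSD3, 34 of 162 in NSD2, 62 of 243 in SETD2 and 94 of 235 in KDM2A.

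CTD peaks lay at all 9 members in every list, and none of these peaks reached a −log10 q of 1.3. The share of coding windows with a CTD peak in every list was not computed, so this count is not a trait particular to the members. The shares at hand are for parts of genes and for peaks in any list. Over all coding genes long enough to be divided, 2.22% had no CTD-covered base in bins 6 to 10 in any of the 6 lists and 5.47% had none at the promoter. There were between 11 and 68 peak centres per gene and list, and the order of the genes was another one. KDM2B (22.97% ± 15.5), KDM4A (20.1% ± 8.82), MORF4L1 (19.6% ± 6.93) and NSD1 (19.6% ± 5.01) were the most covered without UV and ASH1L itself (9.10% ± 2.58) the least (SD, n = 3 lists). This order rests on replicate 1 without UV. Without it KDM2B had a mean of 15.2% and KDM4A of 15.1%, below NSD1 (18.9%), SETD2 (17.2%) and MORF4L1 (16.7%), a comparison chosen after seeing the data. The lists of each gene overlapped those of the next in this order. The median coding gene had between 10.3% and 15.97% over the 6 lists. The experiments differ in cells, in antibody and in control, so the levels are set side by side and not tested.

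Front and back of the genes were compared for the CTD too. In bins 1 to 5 the 8 members with a whole gene had a mean of 19.7% without UV and 16.6% at 3 h, and in bins 6 to 10 a mean of 16.03% and 19.3%. Coding genes with long windows had 12.4% and 12.5% without UV and 12.8% in both parts at 3 h. Single members departed from this, and MORF4L1 went from 27.6% in bins 1 to 5 to 12.7% in bins 6 to 10 without UV and from 15.1% to 20.3% at 3 h. In their last 5 kb, 0 of 8 members were bare of CTD peaks over all 6 lists, beside 5.01% of coding genes. Exons were covered to 14.7% ± 7.11 and introns to 16.4% ± 3.73 without UV, and to 20.9% ± 6.72 and 15.9% ± 1.35 at 3 h (SD, n = 3). Of the 1899 CTD peaks in the windows, 107 were centred in exons.

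The CTD covered 16.9% ± 4.58 of the 9 windows without UV and 16.6% ± 1.57 at 3 h (SD, n = 3 lists each). At every one of the 9 members the lists of the conditions overlapped, where 2.14% of coding genes were lower in all lists at 3 h and 5.22% higher. The limma test called 0 of 9 members at an adjusted p under 0.05, and 0% of coding genes lower and 0% higher. At an unadjusted p under 0.05 no member passed, beside 1.1% of coding genes lower and 3.23% higher. The differences ran from −2.24 ± 4.199 points in MORF4L1 to +3.46 ± 6.57 points in KDM4A (SE; adjusted p = 1 for all 9). Their median was −0.42 points, and that of all coding genes 0.363 points. The smallest exact permutation p for 3 lists against 3 is 0.1, and the lowest among the members was 0.6. The 3 h lists were called against pooled empty-vector ChIP and those without UV against unpooled ChIP, so UV and this step cannot be told apart.

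The CTD values of some members varied widely between lists of 1 condition. KDM2B was covered to 38.5%, 22.9% and 7.497% in replicates 1, 2 and 3 without UV and to 16.9%, 23.3% and 30.7% at 3 h. KDM4A had 30.0%, 17.2% and 13.1% without UV and 15.2%, 22.2% and 33.2% at 3 h. NSD2 had 14.8%, 12.99% and 8.92% without UV and 10.7%, 14.5% and 15.97% at 3 h. In all 3 genes replicate 1 without UV and replicate 3 at 3 h were the highest. Those lists also had the most GC-rich peaks genome-wide, with a mean GC content of 46.9% and 47.1%, whereas the other CTD lists lay between 44.04% and 45.1%.

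This relation was examined in each member across the 6 CTD lists, after the values had been seen. Covered share and GC content come from the same peaks, and the permutations mixed both conditions. The p-values therefore describe these lists and are not independent support for a relation. KDM4A and NSD2 followed the GC content of the lists in exact order (Spearman's rho = 1 each, permutation p = 0.00278, adjusted p = 0.0125 over 9 relations). Pearson's r was 0.986 for KDM4A (permutation p = 0.00139, adjusted p = 0.0125) and 0.851 for NSD2 (permutation p = 0.0417, adjusted p = 0.125). KDM2B had r = 0.902 (permutation p = 0.00972, adjusted p = 0.0438) and rho = 0.943 (permutation p = 0.0167, adjusted p = 0.05). These are the 3 members with the most GC-rich windows (47.3%, 48.1% and 50.5%). In the 6 others r lay between −0.650 and 0.663, with adjusted permutation p-values from 0.297 to 0.744. Without the 2 lists farthest from the median GC content, which are the GC-rich ones, r was 0.968, 0.969 and 0.919 for KDM4A, NSD2 and KDM2B over 4 lists. The same value was 0.838 in KDM2A, 0.658 in SETD2 (from −0.390 over 6 lists) and 0.650 in MORF4L1, and 0.0667 to 0.157 in the other members. Of all coding genes, 0.601% followed the order exactly. Each condition has 3 lists, too few to give the relation within it. Without both GC-rich lists the difference between conditions was +4.87 points in KDM2B, +3.59 in KDM4A and +1.66 in NSD2 (adjusted p = 0.946, 0.905 and 0.950). The part of GC content in the CTD values was not tested.

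**Figure D5:**
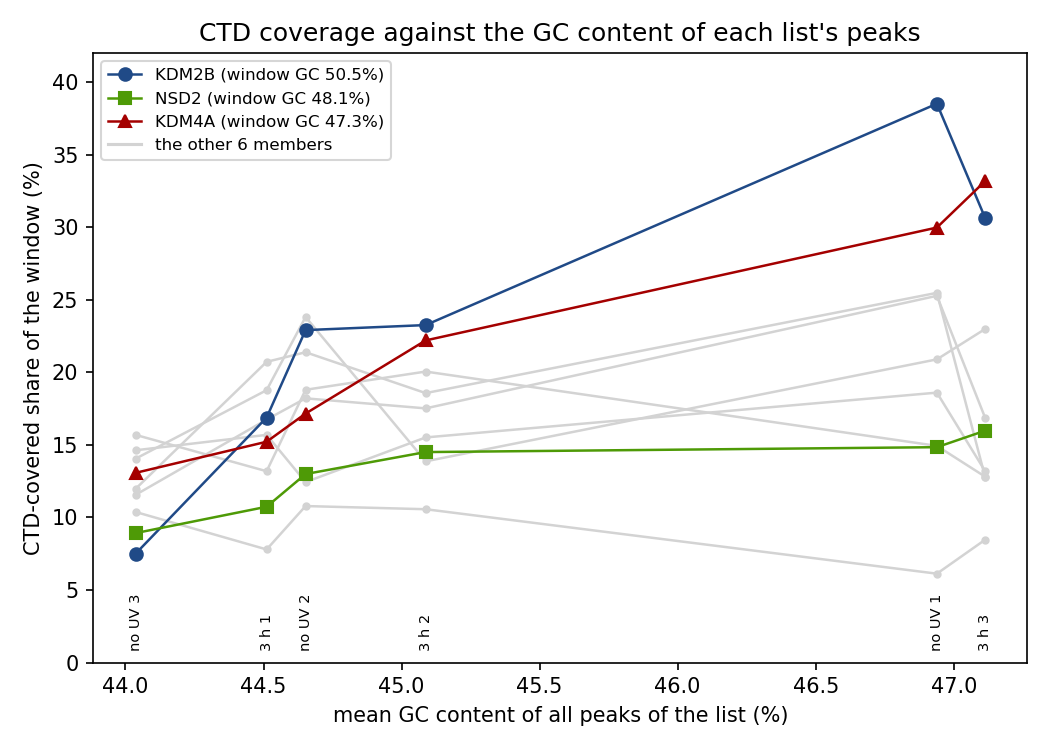
CTD-covered share of the window (%, vertical axis) against the mean GC content of all 500000 peaks of the list (%, horizontal axis), 1 point per member and list, with lines joining the 6 lists of a member. KDM4A and NSD2 increase from list to list with GC content, KDM2B does so up to the last pair, and the 6 other members (grey) show no common order.

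The H3K36me2 lists differed less in GC content, from 46.5% in both lists at 3 h to 47.1% and 47.3% without UV, so that here the more GC-rich lists are those without UV. Whether this bears on KDM2B, the most GC-rich window, was not tested, and 4 lists are too few for a correlation.

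CTD peaks recurred at few places in the members. Merging the peaks of the 6 lists gave 731 sites, of which 24, or 3.28%, had a peak in every list, beside 2.47% of sites over all coding windows. NSD1 held 7 of them, KDM2B 5, NSD2 and SETD2 3 each, NSD3 and KDM4A 2 each, KDM2A and MORF4L1 1 each and ASH1L none. At 42.4% of the sites a single list had a peak. Sites formed by chains of partly overlapping peaks, and of the leading sites of the 9 members only that of NSD3, in intron 16, had bases shared by the strongest peaks of all 6 lists, 27 in number. Fold enrichments at that site ran from 1.71 to 2.31. No peak of the first list had 50% of its bases covered in each of the other lists, and no site kept a peak in every list at a −log10 p of 2. The highest CTD fold enrichment in any window was 2.79, in the upstream flank of ASH1L in replicate 2 at 3 h, and no CTD peak of the members reached a −log10 q of 1.3. Between 4.98% and 8.06% of the members' peaks in a list reached a −log10 p of 2, close to the 5.86% to 8.42% of all peaks.

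A wider list of 24 other genes of lysine 36 methylation was counted in the same way. It held further writers such as SETMAR and SETD5, further erasers such as KDM4B and KDM4C, and readers and partners such as PSIP1, BRPF1 and DNMT3A. In H3K36me2 the limma test called 0 of 24, and the lowest adjusted p was 0.0534, at DNMT3A. At an unadjusted p under 0.05, 6 of 24 were lower, beside 23.5% of coding genes, and none higher. All lists at 3 h were lower in 13 of them (54.2%, beside 47.5%) and higher in none, and their median difference was −1.07 points, beside −1.96 points. In the CTD 0 of 24 were called and 3 were higher at an unadjusted p under 0.05, beside 3.23% of coding genes. In 4 all lists were higher at 3 h (16.7%, beside 5.22%), and the median difference was +1.80 points, beside 0.363 points.

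In its 10 covered shares each member was closest to a gene outside the 9. The search ran over 7979 to 7981 genes per member, nearly all of them not members. That outcome was therefore likely beforehand and is not a result about the members. Among coding genes with long windows that share no bases with the member, the smallest Euclidean distance over the 10 lists was 3.04 points, between ASH1L and RPRD2. It was 3.75 points for KDM2A and PI4KA, 4.04 for NSD2 and RPA1, and 4.73 for NSD3 and RBL1. NSD1 was nearest to TGFB1 (6.58 points), KDM4A to MTMR14 (6.95), KDM2B to SLC2A5 (8.04) and MORF4L1 to ZNF565 (8.06). The closest members were NSD2 and NSD3, 9.11 points apart, and for KDM2B the nearest member was MORF4L1, at 24.4 points.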

How the data were processed

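The data were lists of broad peaks, 1 per replicate, from ChIP-seq of U2OS cells, and other experiments of the study were not analysed here. Per the methods and the submitters' processing notes, the authors trimmed reads (Trim Galore 0.6.5), mapped them with BWA 0.7.17-r1188 to an hg38 genome lacking chromosome Y, kept a mapping quality of 30 or more, removed duplicates (Picard) and blacklisted regions (SAMtools 1.7, bedtools 2.29.2) and ran MACS2 2.2.7.1 in broad mode per replicate, with 0.01 as the p cutoff. The deposited lists also hold weaker peaks. The deposited values are a fold enrichment ratio over control and −log10 p and −log10 q for each peak. The H3K36me2 control was pooled input. For the CTD, the authors used pooled empty-vector ChIP at 3 h and unpooled ChIP without UV.

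Genes were those of GENCODE release 44, and the covered share of each window was computed from all peaks of a list. Conditions were compared with limma over all 19970 coding genes, separately for each experiment, with Benjamini-Hochberg adjustment and condition as the only term, and with two-sided exact permutation tests for single values. Some sequences and 1 most alike gene are not reported here. Peaks of different lists were merged into sites where they shared at least 1 base. All 9 members are named. From the list of 24 other genes, values were to be given only for genes that passed the fit, and DNMT3A was named after its value was seen. The members and lists were chosen with earlier results of these data known. The labels call the replicates biological and do not say what was separate between them, so p-values measure the spread between these samples. Read depth is not part of the lists, so precision rests on the spread between replicates.

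Alternatives were peaks with a −log10 p of 2 or 3 or more, peaks shared with another replicate, peak centres per 100 kb, the gene body alone, the list median subtracted, windows of 50 kb or more, a replicate block and leaving out each replicate. Leaving out both GC-rich CTD lists, or replicate 1 without UV from the CTD levels, was chosen after seeing the data. The interval arithmetic was checked against bedtools 2.31.1 and the fit was tested on simulated data. Python 3.11.15, NumPy 2.4.6, pandas 2.3.3, SciPy 1.17.1, matplotlib 3.10.9, R 4.3.3 and limma 3.58.1 were used.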

Additional observations from a re-analysis of the deposited data

Results flagged for a closer look

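The part of ASH1L left out of the window, which holds the exons carried by the construct, had 16 to 24 CTD peaks in each of the 6 lists. The highest fold enrichment there was between 5.87 and 41.2, depending on the list, whereas inside the part used no CTD peak of ASH1L exceeded 2.79. The H3K36me2 lists, from cells without the construct, had 0 or 1 peak in the left-out part, with a fold enrichment of 1.82. The CTD signal in the left-out part was flagged because no comparison used it. The H3K36me2 lists differ from the CTD lists in cells, antibody and control, so their fold enrichments are not a matched reference. The source of the signal was not tested.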

How the results depend on the processing

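In H3K36me2, 61 of 72 member differences under other settings kept their direction and 3 passed the threshold. With peaks shared by another replicate, 3 members were called, and 2812 coding genes lower and 413 higher. Calls lower and higher were 93 and 7 at a −log10 p of 2, 44 and 16 at 3, 621 and 108 for centres, 109 and 6 for the gene body and 264 and 3 for windows of 50 kb or more, where the fit on all peaks made 0. The members' median was −0.117 points at a −log10 p of 3 and 2.94 with the list median subtracted. The direction turned for NSD3 (−0.504 and −0.0946 at a −log10 p of 2 and 3, −0.242 with shared peaks), KDM2A (0.0709 and 0.0114 at 2 and 3) and NSD1 (0.187 in the gene body). With the list median subtracted it turned for KDM4A (3.36), ASH1L (2.04), SETD2 (1.22), NSD1 (3.16) and KDM2A (2.94). Leaving out 1 list gave −0.332 to 0.718 in NSD3 (turned without replicate 1 at 3 h) and −1.51 to 0.357 in KDM4A (turned without replicate 2 without UV). KDM2B stayed between −13.9 and −9.61. SETD2 ranged from −3.71 to −1.71 (highest without replicate 2 without UV), ASH1L from −3.68 (without replicate 1 without UV) to −0.106 (without replicate 2 without UV), NSD1 from −1.54 (without replicate 1 at 3 h) to −0.0028 (without replicate 2 at 3 h) and the members' median from −1.54 (without replicate 1 at 3 h) to −0.883. The causes were not tested.

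In the CTD, 61 of 81 differences kept their direction and none passed. Calls lower and higher were 3 and 2 at a −log10 p of 2 and 4 and 10 with shared peaks. At a −log10 p of 2 KDM4A (−0.727), ASH1L (0.651), SETD2 (0.837), NSD1 (0.442), KDM2B (−1.28) and MORF4L1 (0.130) turned, and at 3 ASH1L (0.113), NSD1 (0.0523) and KDM2B (−0.0377). With shared peaks ASH1L (0.699), NSD3 (0.772) and KDM2A (0.308) turned, for centres per 100 kb ASH1L (1.16), NSD1 (0.187), NSD3 (2.18) and MORF4L1 (1.37), with the list median subtracted KDM2B (−0.602), and without both GC-rich lists NSD3 (2.07), KDM2A (2.25) and MORF4L1 (2.97). Leaving out 1 list turned the direction of every member at least once. The ranges were −3.81 to 1.29 in NSD1, −0.178 to 2.99 in NSD2, −1.81 to 1.27 in NSD3, −3.47 to 0.145 in SETD2, −1.64 to 0.688 in ASH1L, −4.69 to 2.17 in KDM2A, −7.11 to 8.40 in KDM2B, −1.36 to 8.41 in KDM4A and −6.06 to 0.691 in MORF4L1. The causes were not tested.

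Sites in every list went from 20 to 3 (−log10 p of 2) and 5 (50% overlap) in H3K36me2 and from 24 to 0 and 0 in the CTD.

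The labels do not say whether samples of the same replicate number belong together, so the main fits did not pair them. Deviations of same-numbered lists correlated at 0.00963 in H3K36me2 and at −0.269, 0.112 and −0.435 in the CTD, and not every list was closest to its own number. With the replicate block the members' median stayed at −0.995 and −0.420 points, 0 members were called in either experiment and no call changed.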
